A study of Homo sapiens with 39 samples.

Results

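The 10 genes described here were chosen by their measured fall after doxycycline in both inducible clones of the study. They are BMP2, ITGA2, PTX3, IGFBP3, PLA2G4A, KCNJ2, FBXO32, THBS1, TM4SF18 and NFKBIZ, out of 23710 gene symbols in each table. Doxycycline switches on the ubiquitin ligase TRIM37 in these clones, so the question asked of the 10 genes is whether they went the other way when TRIM37 was lost. In the RPE1 knockout they split evenly: 5 were called higher than in wild type and 5 lower, against 26.6% and 26.9% of all measured genes. With the test statistics rescaled to their spread in that table, 3 higher and 2 lower were kept. The share of all measured genes called after rescaling is not given here. In the neuroblastoma line CHP-134, where mean counts of the 10 genes were 0 to 157, 6 could be tested. Of these 1, PTX3, was called, as lower, in 1 of 2 mutant clones. In that clone 24.2% of all measured genes were called lower, and so were 30 of the 40 nearest measured neighbours of PTX3.

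The study sequenced the RNA of 39 libraries in 9 groups of 2 human cell lines. RPE1 cells come from retinal pigment epithelium and were immortalised with hTERT. CHP-134 cells come from a neuroblastoma. The groups are 9 libraries of RPE1 TRIM37 knockout and 9 of RPE1 wild type. CHP-134 has 3 each of CHP-134 TRIM37 mutant clone 1 and clone 2, labelled as partial knockouts, and 3 of wild type. There are 3 doxycycline-treated and 3 untreated libraries of TetOn-TRIM37 clone 4 and of TetOn-TRIM37 clone 5, which are RPE1 cells with an inducible transgene. Doxycycline was given at 1 µM for 24 h. Both arms of each TetOn pair carry the transgene. No group is RPE1 without the transgene under doxycycline, so effects of the drug and of TRIM37 cannot be told apart. The labels name no clone for the RPE1 knockout, and each CHP-134 mutant group is 1 clone, so a difference between lines and an effect of TRIM37 loss cannot be told apart. The labels number the 9 RPE1 wild type libraries as 3 sets of 3 (rep1-1 to rep3-3) and the knockout libraries singly (rep1 to rep9). They do not say what a set is. Nothing says that replicates were separate cultures, so the q values may measure technical spread only. The files used here hold 1 table per comparison, with a mean count over both arms, a log2 fold change of the altered over the control arm with its standard error (SE), and an adjusted p, called q. They hold no value per library, so neither depth per library nor spread between libraries is known. A gene is called at a q under 0.05, and measured genes are those that the authors neither marked as low nor set aside as outliers.

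TRIM37, which sets the direction of every table, had a log2 fold change of -1.95 (SE 0.0461) in the RPE1 knockout per the authors' deposited table. It was -1.66 (SE 0.0337) and -1.75 (SE 0.0416) in CHP-134 clones 1 and 2, and 3.19 (SE 0.0441) and 2.64 (SE 0.0419) in TetOn clones 4 and 5, per the authors' deposited tables. The CHP-134 tables showed the neuroblastoma marker MYCN at mean counts of 46600 to 49700 and the keratin genes KRT8 and KRT18 under 1. The RPE1 tables showed KRT8 and KRT18 at mean counts of 10700 to 25800, with MYCN between 0 and 0.18. Of 12 pigment epithelium markers, which include KRT8 and KRT18, 5 or 6 were measured in each RPE1 comparison and 4 in each CHP-134 comparison. In RPE1 the mean counts of RPE65, RLBP1 and TYR lay between 0 and 2.79. Those of MITF were 1100 to 2140, of PAX6 718 to 1460 and of OTX2 503 to 874. In CHP-134 clones 1 and 2, MITF was at 206 and 221 and SERPINF1 at 315 and 378. Of 12 neuroblastoma markers, 7 were measured in each CHP-134 comparison and 2 or 3 in each RPE1 comparison. Among the latter was GATA2, at mean counts of 279 to 460.

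The 10 genes do not belong to 1 pathway. Of the secreted proteins, BMP2 is a ligand of the bone morphogenetic protein receptors and IGFBP3 binds insulin-like growth factors. THBS1 (thrombospondin-1) is a matrix protein that can activate latent TGF-beta, and PTX3 is a pentraxin of innate immunity that IL-1 and TNF induce. At the membrane, ITGA2 is the alpha subunit of a collagen-binding integrin, KCNJ2 forms an inward rectifier potassium channel, and TM4SF18 belongs to the L6 family of small membrane proteins. Inside the cell, PLA2G4A is the cytosolic phospholipase that releases arachidonic acid. FBXO32 (atrogin-1) is an F-box protein of a ubiquitin ligase that FOXO factors induce in wasting muscle, and NFKBIZ is a nuclear IkB protein that promotes part of the NF-kB response.

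The fall after doxycycline was small and alike in size across the 10 genes, and since it chose them it is given as a description. The 10 lead a ranking of 77 genes called lower in both TetOn clones at a mean count of at least 50, ordered by the smaller of the 2 falls. All 10 were called lower in each clone by this choice, against 1.23% of measured genes called lower in clone 4 and 2.17% in clone 5. Their levels with doxycycline were 1.30 to 1.49 times lower than without it in clone 4 and 1.30 to 1.70 times lower in clone 5, by the authors' deposited tables. PTX3 differed most between the clones, with log2 fold changes of -0.46 (SE 0.0364) in clone 4 and -0.76 (SE 0.0563) in clone 5 per the authors' deposited tables. Its value in clone 5 is the second lowest of 12195 measured genes.

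The other secreted proteins lay close together per the authors' deposited tables. BMP2 was at -0.52 (SE 0.113) in clone 4 and -0.54 (SE 0.116) in clone 5. IGFBP3 was at -0.45 (SE 0.0354) and -0.48 (SE 0.0336) in the same order, and THBS1 at -0.39 (SE 0.0386) and -0.51 (SE 0.0433). Of the membrane proteins, the authors' deposited tables put ITGA2 at -0.57 (SE 0.0412) in clone 4 and -0.51 (SE 0.0548) in clone 5. KCNJ2 was at -0.44 (SE 0.0904) and -0.52 (SE 0.0954), and TM4SF18 at -0.38 (SE 0.0715) and -0.39 (SE 0.0973). Within the cell, PLA2G4A was at -0.53 (SE 0.07) in clone 4 and -0.45 (SE 0.0796) in clone 5. FBXO32 was at -0.39 (SE 0.0701) and -0.41 (SE 0.0532), and NFKBIZ at -0.40 (SE 0.103) and -0.37 (SE 0.102) per the authors' deposited tables. NFKBIZ and the gene that follows it, HHIP, which encodes an inhibitor of hedgehog ligands, had the same smaller fall of -0.37, so the boundary of the group is not a gap. After HHIP come SEMA3D, GDF6, LIF and ALDH1A3, with smaller falls of -0.35, -0.34, -0.34 and -0.32 per the authors' deposited tables.

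**Figure D1:**
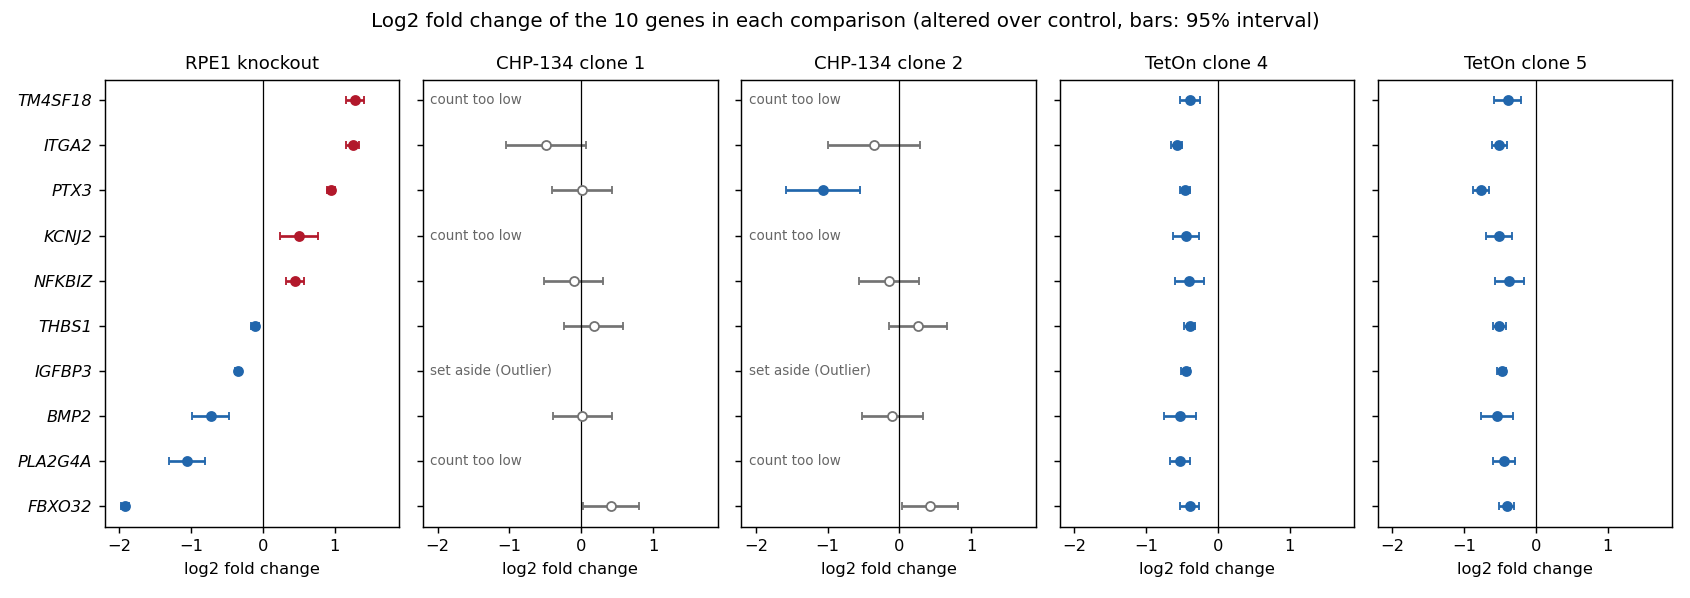
Log2 fold changes (x axis, altered over control arm) of the 10 genes (rows, ordered by the knockout) in the 5 comparisons, with 95% intervals from the authors' SE. Filled red points were called higher, filled blue points called lower and open grey points not called; genes with too low a count or set aside as outliers have no point. All 10 points lie left of 0 in both TetOn panels by choice, whereas the knockout points run from -1.92 (FBXO32) to 1.28 (TM4SF18).

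Windows of 250 bases before to 50 bases after the RefSeq start site (assembly GRCh38.p14) were at hand for 8 of the 10 genes, 9 windows in all, since NFKBIZ has 2. They were searched on both strands for 5 motifs. The AP-1 motif TGANTCA was in 0 of the 9 windows, against 7.71% of 35116 windows of all genes, and the FOXO motif GTAAACA also in 0, against 3.42%. The TATA box TATAAA was in 1, against 11.5%, the TEAD motif GGAATG in 2, against 14.03%. An NF-kB motif, in which 3 G and 2 C flank 5 free bases, was in 7, against 58.7%, and is thus common in promoters at large. Overlapping matches were not merged. Shown are 4 windows from genes that moved in different directions in the knockout, 5′ to 3′ on the gene's own strand, with every match to 1 of the 5 motifs in capitals.
PTX3 (chr3:157436600-157436899, plus strand): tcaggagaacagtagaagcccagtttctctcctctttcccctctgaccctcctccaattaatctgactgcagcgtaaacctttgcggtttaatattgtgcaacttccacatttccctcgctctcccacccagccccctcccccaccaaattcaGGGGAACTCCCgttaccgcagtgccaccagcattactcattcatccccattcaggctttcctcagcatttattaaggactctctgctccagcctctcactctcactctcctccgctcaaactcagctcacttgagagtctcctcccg
NFKBIZ (chr3:101827740-101828039, plus strand): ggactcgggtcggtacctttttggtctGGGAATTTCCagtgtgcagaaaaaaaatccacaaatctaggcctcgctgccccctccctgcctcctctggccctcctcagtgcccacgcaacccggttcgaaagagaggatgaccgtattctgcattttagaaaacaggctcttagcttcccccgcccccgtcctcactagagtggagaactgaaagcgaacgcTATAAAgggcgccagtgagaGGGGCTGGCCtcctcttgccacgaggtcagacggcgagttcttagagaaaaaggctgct
TM4SF18 (chr3:149333587-149333886, minus strand): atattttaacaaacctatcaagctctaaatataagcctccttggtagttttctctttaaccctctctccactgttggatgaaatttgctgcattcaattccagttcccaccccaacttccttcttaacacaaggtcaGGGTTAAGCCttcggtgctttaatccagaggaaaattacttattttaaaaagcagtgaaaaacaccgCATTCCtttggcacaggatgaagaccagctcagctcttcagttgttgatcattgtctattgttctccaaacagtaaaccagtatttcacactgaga
THBS1 (chr15:39580829-39581128, plus strand): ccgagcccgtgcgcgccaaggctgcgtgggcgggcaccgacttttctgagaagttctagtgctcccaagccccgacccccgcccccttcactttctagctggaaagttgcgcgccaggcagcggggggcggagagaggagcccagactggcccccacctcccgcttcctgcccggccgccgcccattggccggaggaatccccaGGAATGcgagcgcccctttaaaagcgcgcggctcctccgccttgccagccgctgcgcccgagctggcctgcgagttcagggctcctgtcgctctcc

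In the upstream window of NFKBIZ the NF-kB matches begin 223 and 9 bases before the start site and a TATA box 29 bases before it; in PTX3 the overlapping NF-kB matches begin 97 and 96 bases before it. TM4SF18 and THBS1 are the genes whose windows hold the TEAD motif, in both at 46 bases before the start site and on opposite strands. These are matches of letters only. In the knockout, TM4SF18 was among the genes that were higher and THBS1 among those that were lower.

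The RPE1 knockout was compared with wild type to see which transcripts differ when TRIM37 is lost. All 10 genes were measured and all 10 were called. ITGA2, PTX3, KCNJ2, TM4SF18 and NFKBIZ were higher, opposite to their change with doxycycline. BMP2, IGFBP3, PLA2G4A, FBXO32 and THBS1 were lower, in the same direction as with doxycycline. This count has to be read against a table in which 53.6% of measured genes were called, 26.6% higher and 26.9% lower, and 57.0% of those with a mean count of at least 100, a level that all 10 exceeded. The median of the 10 log2 fold changes was 0.17, against -0.0022 over all 13002 measured genes. The 10 values spanned 3.78-fold lower to 2.43-fold higher. The range with doxycycline was narrowed by the choice of the genes, so the 2 ranges are not compared.

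Among the genes that were higher in the knockout, TM4SF18 was at 1.28 (SE 0.0638), or 2.43-fold, and ITGA2 at 1.25 (SE 0.0484), or 2.38-fold, per the authors' deposited table, both with a q printed as 0. They rank 245th and 250th from the top of the measured genes, so both were among the larger rises of the table. PTX3 was at 0.95 (SE 0.0275, q printed as 0) per the authors' deposited table, which is 1.93-fold. The smaller rises were of KCNJ2 at 0.50 (SE 0.135, q = 0.000565) and NFKBIZ at 0.45 (SE 0.0655, q = 4.05e-11) per the authors' deposited table, 1.42-fold and 1.37-fold. The size of the knockout change over the larger doxycycline change was 3.26 for TM4SF18, 2.18 for ITGA2, 1.25 for PTX3, 1.13 for NFKBIZ and 0.973 for KCNJ2. Since the doxycycline changes chose the genes, these ratios are a description only.

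Among the genes that were lower, FBXO32 stood out at -1.92 (SE 0.0281, q printed as 0) per the authors' deposited table, 3.78-fold lower and 137th from the bottom of 13002 genes. The phospholipase gene PLA2G4A was at -1.06 (SE 0.128, q = 1.06e-15), 2.08-fold lower, and the ligand gene BMP2 at -0.73 (SE 0.132, q = 1.48e-07), 1.65-fold lower, per the authors' deposited table. IGFBP3 at -0.35 (SE 0.0242, q = 4.2e-45) and THBS1 at -0.11 (SE 0.0279, q = 0.000263) per the authors' deposited table were lower by 1.27-fold and 1.08-fold. The knockout changes of THBS1 and IGFBP3 were 0.214 and 0.721 of the larger doxycycline change, and that of FBXO32 was 4.71 times as large. These ratios, too, are a description only.

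The calls in the knockout rest on the null that the authors' test assumed. The statistics of this table, log2 fold change over SE, had a central spread of 3.64 where the assumed null has 1. With the statistics divided by that spread, 5 of the 10 calls were kept: ITGA2, PTX3 and TM4SF18 higher, FBXO32 and IGFBP3 lower. BMP2 (adjusted p = 0.56), PLA2G4A (adjusted p = 0.172), NFKBIZ (adjusted p = 0.345), KCNJ2 (adjusted p = 0.867) and THBS1 (adjusted p = 0.832) then missed the threshold. The share of all measured genes called after this division is not given here, so the count of calls kept is a description only. Subtracting the median of the chromosome or of the 40 nearest measured genes ended none of the 10 knockout calls.

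**Figure D2:**
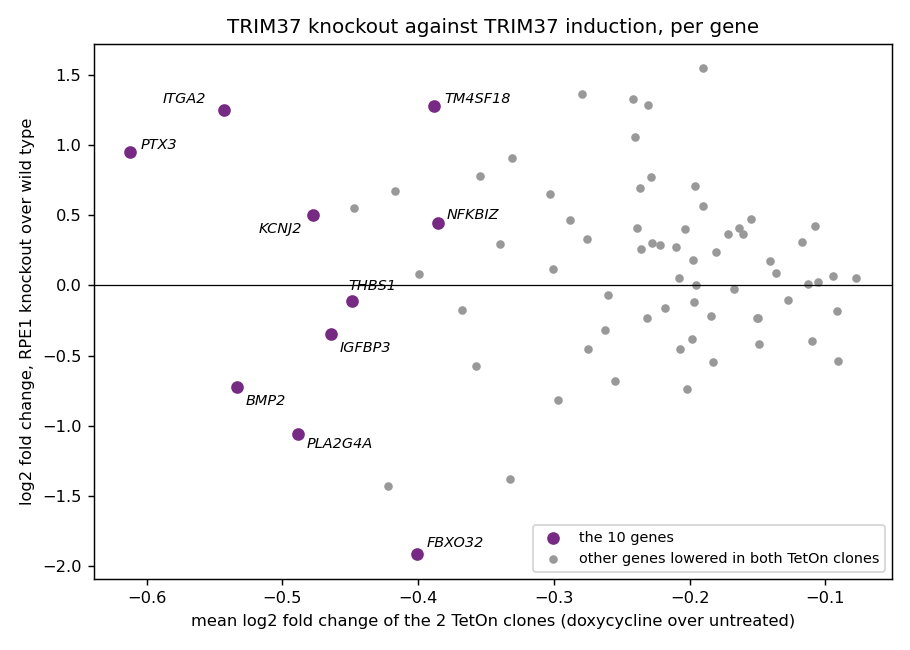
Log2 fold change in the RPE1 knockout (y axis) against the mean log2 fold change of the 2 TetOn clones (x axis) for the 10 genes (purple) and the 66 others lowered in both clones that the knockout table measured (grey). The 10 genes lie at the left by choice, and along the y axis they lie on both sides of 0, as do the other genes.

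Genes that share a pathway or family with the 10, from lists chosen with earlier results in view and counted without the 10, did not mirror them one for one. The list counts have to be read against the shares over all measured genes. These were 26.6% higher and 26.9% lower in the knockout, 0.716% and 1.23% in TetOn clone 4, and 0.795% and 2.17% in clone 5. In the knockout the NF-kB feedback and IkB list, which holds the relatives of NFKBIZ, had 0 higher and 11 lower of 15 measured (median -0.33), while NFKBIZ itself was higher. The TRAF1 gene was at -1.32 (SE 0.1), BIRC3, which encodes an inhibitor of apoptosis, at -1.13 (SE 0.126) and TNIP1 at -0.33 (SE 0.0264) per the authors' deposited table. The list of IL-1 and IL-17 response genes, to which PTX3 and NFKBIZ belong, had 3 higher and 9 lower of 13 (median -0.87). The chemokine gene CCL2 was at -6.73 (SE 0.274), the cytokine gene IL11 at -1.59 (SE 0.0601) and, the other way, IL1B at 2.06 (SE 0.0759) per the authors' deposited table. PTX3 and NFKBIZ were thus higher in a table in which most of these genes were lower. With doxycycline 1 of 15 NF-kB feedback genes was called lower in clone 4 and 0 of 15 in clone 5, and 0 were called higher. Of the IL-1 and IL-17 response genes 1 of 11 and 1 of 9 were called, both lower.

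Collagen and fibronectin receptor and thrombospondin genes, the relatives of ITGA2 and THBS1, had 2 higher and 8 lower of 14 in the knockout (median -0.26), again against the direction of ITGA2. The collagen receptor subunit gene ITGA11 was at -1.57 (SE 0.0264), ITGB3 at -1.52 (SE 0.0945) and ITGA3 at -0.42 (SE 0.0243) per the authors' deposited table. With doxycycline the same list had 0 higher and 2 lower of 13 in clone 4 and 0 higher and 4 lower of 12 in clone 5. There ITGA11 was at -0.14 (SE 0.029), ITGA5 at -0.093 (SE 0.0197) and the chaperone gene CALR at -0.11 (SE 0.0253) per the authors' deposited table. In the L6 family TM4SF1 was the 1 relative of TM4SF18 that was measured. It was called lower in all 3 RPE1 comparisons, at -0.42 in the knockout, -0.18 in TetOn clone 4 and -0.12 in clone 5 per the authors' deposited tables, so the pair moved together with doxycycline and apart in the knockout.

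The relatives of the genes that were lower in the knockout were mixed. Insulin-like growth factor binding and receptor genes had 2 higher and 5 lower of 12 (median -0.094). IGFBP2 was at -2.72 (SE 0.112), IGF1R at -0.34 (SE 0.0413) and PAPPA, which encodes a protease of these binding proteins, at 0.70 (SE 0.0575) per the authors' deposited table. In TetOn clone 5, 3 of 11 were lower and 0 higher, and in clone 4, 1 of 9 was lower. PAPPA was at -0.58 (SE 0.0518), IGFBP5 at -0.46 (SE 0.0968) and the adaptor gene IRS1 at -0.20 (SE 0.0504) in clone 5 per the authors' deposited table. BMP and SMAD signalling genes had 6 higher and 5 lower of 22 in the knockout (median 0.0018). Lower were the pseudoreceptor gene BAMBI at -1.35 (SE 0.0425), the BMP antagonist gene GREM1 at -0.79 (SE 0.0274) and BMP4 at -0.30 (SE 0.0336) per the authors' deposited table. With doxycycline 0 of 22 were called in clone 4 and 2, both lower, in clone 5. FOXO and atrophy genes, which go with FBXO32, had 10 higher and 6 lower of 18 in the knockout (median 0.13). SESN3 was at 4.70 (SE 0.119), FBXO21 at 0.59 (SE 0.0319) and CITED2 at -0.74 (SE 0.0301) per the authors' deposited table. With doxycycline 0 of 15 FOXO and atrophy genes were called in clone 4 and 1 of 17, lower, in clone 5. Arachidonate and prostaglandin genes, which go with PLA2G4A, had 5 higher and 5 lower of 14 in the knockout (median 0.066), and none was called in either TetOn clone. ANXA1 was at 0.42 (SE 0.0244), PTGES3 at 0.61 (SE 0.0366) and PTGER4 at 0.31 (SE 0.0744) in the knockout per the authors' deposited table. Of the inward rectifier channels other than KCNJ2, 1 of 12 was measured in each RPE1 table and 0 were called.

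Broader response lists, some of which hold 1 or more of the 10, were mixed too. TGF-beta targets, which include THBS1 and IGFBP3, had 5 higher and 9 lower of 15 in the knockout (median -0.13). With doxycycline they had 0 higher and 1 lower of 13 in clone 4 and 0 higher and 5 lower of 14 in clone 5. In clone 5 CTGF was at -0.38 (SE 0.025) and TGFB1 at -0.36 (SE 0.0403), and in the knockout the receptor gene TGFBR2 was at 0.99 (SE 0.0205) per the authors' deposited tables. YAP and TEAD targets had 3 higher and 15 lower of 20 in the knockout (median -0.33), 1 higher and 0 lower of 19 in TetOn clone 4 and 0 higher and 3 lower of 20 in clone 5. In the authors' deposited tables the knockout had ANKRD1 at -1.04 (SE 0.0218), TGFB2 at -1.20 (SE 0.0279) and F3 at -0.72 (SE 0.0176), and clone 5 had, beside CTGF, F3 at -0.12 (SE 0.0323) and NT5E at -0.084 (SE 0.0223). Early response and AP-1 genes had 9 higher and 8 lower of 20 in the knockout (median -0.072), 2 higher and 2 lower of 22 in TetOn clone 4 and 1 higher and 5 lower of 21 in clone 5. The knockout had PHLDA1 at 1.80 (SE 0.0231), DUSP6 at 1.33 (SE 0.0595) and DUSP1 at -0.89 (SE 0.0435), and clone 4 EGR3 at -0.46 (SE 0.126), KLF4 at 0.57 (SE 0.162) and DUSP6 at -0.22 (SE 0.0635) per the authors' deposited tables. In clone 5 IER2 was at -0.25 (SE 0.0429), IER3 at -0.26 (SE 0.0534) and JUNB at -0.36 (SE 0.075) per the authors' deposited table. ATF4 and amino acid stress genes, a list added because doxycycline also acts on mitochondrial ribosomes, had 6 higher and 0 lower of 19 in TetOn clone 4 (median 0.13) and 1 higher and 0 lower of 18 in clone 5, against 0.716% and 0.795% of all measured genes called higher. The asparagine synthetase gene ASNS at 0.23 (SE 0.0299), PSAT1 at 0.22 (SE 0.0366) and ATF4 at 0.20 (SE 0.0395) led in clone 4 per the authors' deposited table. In the knockout 9 were higher and 11 lower of 23 (median -0.098). In the knockout table these were led by STC2 at -0.65 (SE 0.0122), SHMT2 at 0.55 (SE 0.02) and ASNS at -0.83 (SE 0.0349) per the authors' deposited table. In TetOn clone 5 the median of the list was -0.014, with 8 values above 0 and 10 below. There ATF4 was at 0.061 (SE 0.0334) and not called, and ASNS and PSAT1 were set aside as outliers, per the authors' deposited table. The part of the rise of these stress genes in clone 4 in the fall of the 10 genes was not tested.

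**Figure D3:**
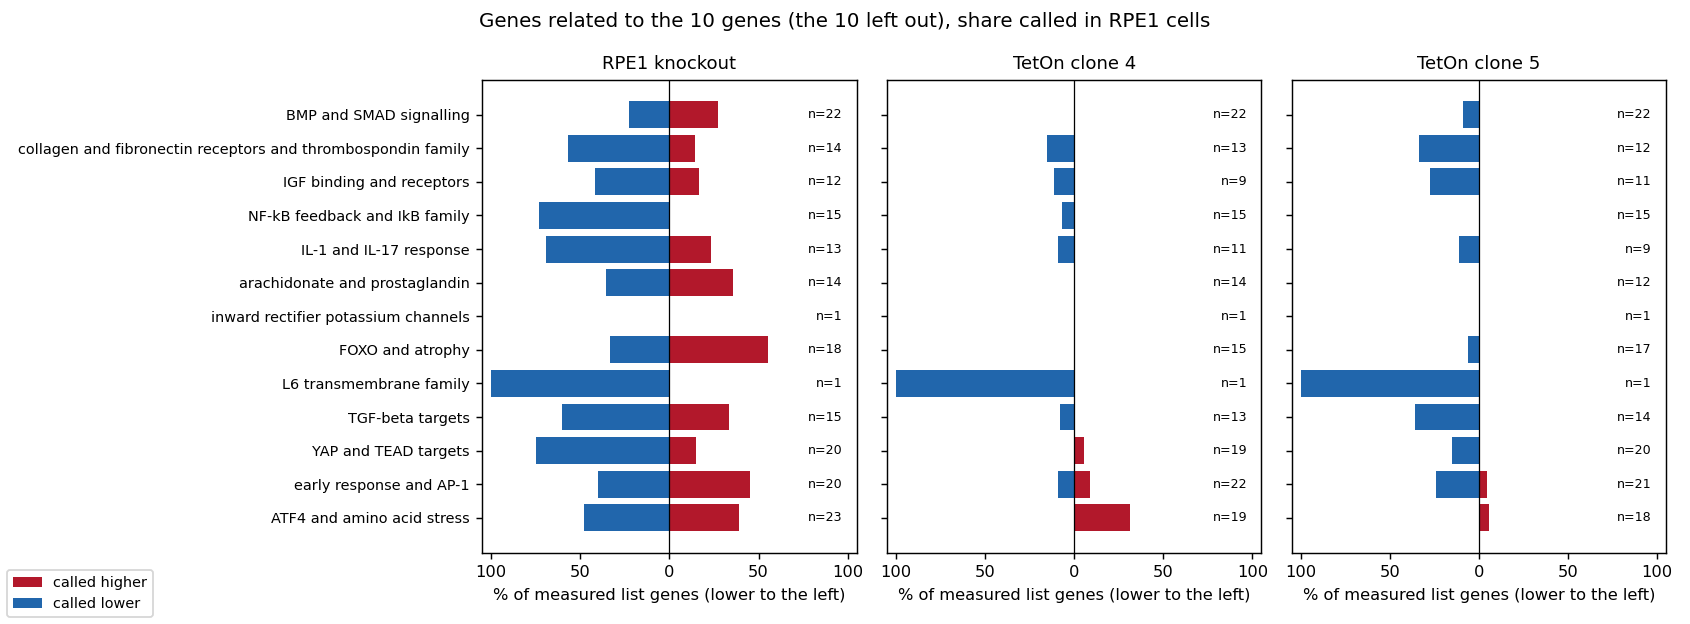
Share of measured genes of each related list (rows, the 10 genes left out) called higher (red, to the right of 0) or lower (blue, to the left of 0), in percent, in the RPE1 knockout and the 2 TetOn clones, with the number measured as n. In the knockout the NF-kB feedback and IkB list has 0 of 15 higher and 11 of 15 lower, and in TetOn clone 4 the ATF4 list has 6 of 19 higher. Over all measured genes, 26.6% were called higher and 26.9% lower in the knockout, and 0.716% higher in TetOn clone 4.

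Levels set the limit of what the CHP-134 tables can show. The 10 genes together stood at 4583 CPM in the knockout table, 3176 and 5681 in those of TetOn clones 4 and 5, and 12.5 and 13.03 in those of CHP-134 clones 1 and 2. CPM is here the mean count over both arms, scaled to each table's own total, and the tables were scaled separately. THBS1 makes up most of it in RPE1: its mean count was 143000 in the knockout comparison, 64200 and 122000 in TetOn clones 4 and 5, but 41.9 and 45.8 in CHP-134 clones 1 and 2 per the authors' deposited tables. PLA2G4A and TM4SF18 are listed at 0 in both CHP-134 tables, and KCNJ2 at 8.76 and 8.94 lay under the limit of 10. IGFBP3, with mean counts of 121 and 157, was set aside as an outlier in both, so 6 of the 10 genes were measured there. The 10 genes were chosen at a mean count of at least 50 in both TetOn clones, with no such floor in CHP-134. Their lower level in CHP-134 is thus partly set by the choice. Within RPE1 the level also varied between lines: ITGA2 stood at 314 CPM in the table of TetOn clone 4 and 101 in that of clone 5. PTX3 was at 213 and 97.5, FBXO32 at 47.7 and 85.6, and IGFBP3 at 100.0 and 176. BMP2 was at 5.68 and 6.27 and NFKBIZ at 10.2 and 10.7. The spread over libraries is not known, so no order among neighbouring levels is read from these values.

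**Figure D4:**
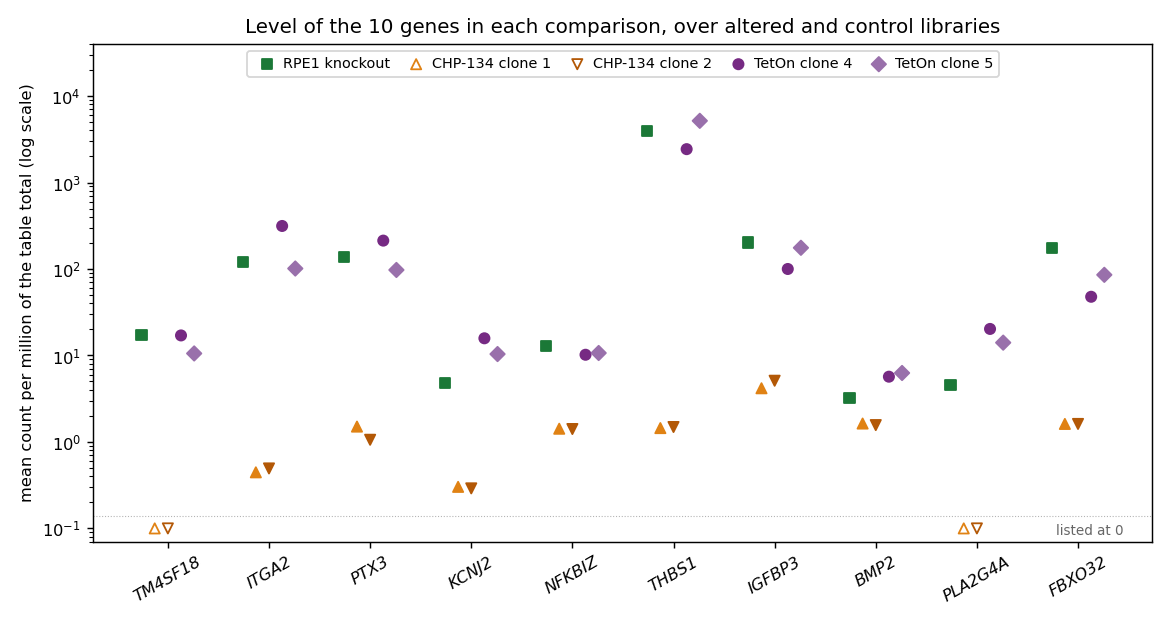
Mean level in CPM of each table's total (y axis, log scale) of the 10 genes in the 5 comparisons, over altered and control libraries together. Open symbols at the bottom are genes listed at 0. In the CHP-134 tables each of the 10 genes lies below its level in the 3 RPE1 tables. The choice of the genes required a mean count of at least 50 in both TetOn clones, which are RPE1 cells, so this is partly set by the choice.

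Each CHP-134 clone was set against the same 3 wild type libraries, to see which transcripts differ in neuroblastoma cells with less TRIM37. In clone 1, 0 of the 6 measured genes were called by the authors' DESeq2 test (1 at an unadjusted p under 0.05), against 9.60% of measured genes called higher and 9.07% lower. In clone 2, PTX3 was called lower and 0 of the other 5 were called, against 22.0% higher and 24.2% lower. The SEs of these 6 genes were 0.196 to 0.284 in clone 1 and 0.202 to 0.326 in clone 2, against 0.0242 to 0.135 for the 10 genes in the RPE1 knockout, so a change of the size of the doxycycline falls could miss the threshold at this depth.

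PTX3 was at 0.016 (SE 0.214, q = 0.972) in clone 1 and -1.06 (SE 0.263, q = 0.000283) in clone 2 per the authors' deposited tables. FBXO32, the gene with the largest fall in the RPE1 knockout, had positive values that were not called, 0.42 (SE 0.196, q = 0.125) in clone 1 and 0.43 (SE 0.202, q = 0.0708) in clone 2 per the authors' deposited tables. ITGA2, at mean counts of 12.9 and 15.2, had values of -0.49 (SE 0.284, q = 0.23) and -0.35 (SE 0.326, q = 0.393) in clones 1 and 2 per the authors' deposited tables. THBS1 was at 0.18 (q = 0.622) and 0.25 (q = 0.32), BMP2 at 0.017 (q = 0.97) and -0.10 (q = 0.731) and NFKBIZ at -0.10 (q = 0.793) and -0.15 (q = 0.609) in clones 1 and 2 per the authors' deposited tables.

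PTX3 lies on chromosome 3 among genes that were lower as a block in clone 2. Of the 40 nearest measured genes, 20 on each side in RefSeq order, 30 were called lower and 1 higher in clone 2, with a median log2 fold change of -0.54, whereas in clone 1, 3 were lower and 5 higher, with a median of -0.012. With that median removed PTX3 was at -0.52 in clone 2 and no longer called (adjusted p = 0.109). With the median of all of chromosome 3, -0.10, removed it was still called. With the statistics divided by the central spread of the clone 2 table, 3.08, it was not (adjusted p = 0.906). Of the 40 neighbours, 1 had a lower value than PTX3 in clone 2.

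**Figure D5:**
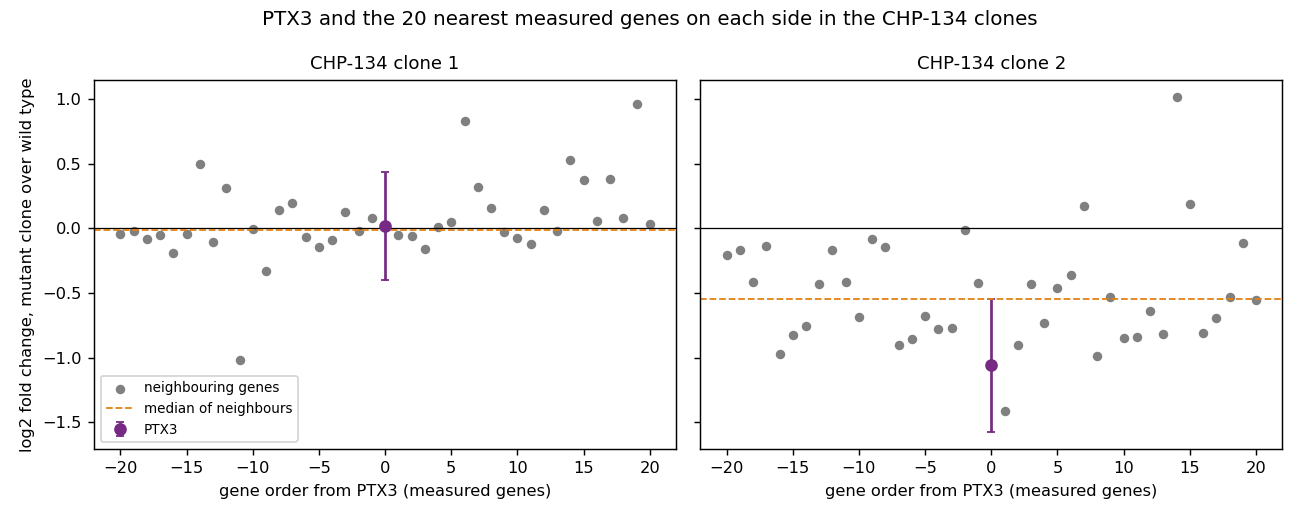
Log2 fold change (y axis, mutant clone over wild type) of PTX3 (purple, with its 95% interval) and of the 20 nearest measured genes on each side (grey), by gene order (x axis), in CHP-134 clones 1 and 2. The dashed line is the median of the neighbours, -0.012 in clone 1 and -0.54 in clone 2.

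The related lists differed in how many of their genes were measured in CHP-134. Over all measured genes, 9.60% were called higher and 9.07% lower in clone 1, and 22.0% and 24.2% in clone 2. The list counts that follow have to be read against these shares, and a list near them stands out in nothing. The early response and AP-1 list, in clone 1, had 7 higher and 0 lower of 13 (median 0.54) and in clone 2, 6 higher and 1 lower of 13 (median 0.21). The immediate early factor gene EGR1 was at 1.78 (SE 0.163) in clone 1 and 1.17 (SE 0.165) in clone 2. SPRY2, which encodes a feedback inhibitor of growth factor signalling, was at 1.05 (SE 0.16) and 1.53 (SE 0.156), and FOSL2 at 0.75 (SE 0.15) and 0.83 (SE 0.149) per the authors' deposited tables. ATF4 and amino acid stress genes had 2 higher and 5 lower of 20 in clone 1 and 4 higher and 8 lower of 20 in clone 2, with PHGDH at -0.39 (SE 0.053), MTHFD2 at -0.18 (SE 0.0367) and PSAT1 at -0.22 (SE 0.0468) in clone 1 and STC2 at -2.25 (SE 0.152), SESN2 at 0.92 (SE 0.0724) and ALDH1L2 at -0.53 (SE 0.0646) in clone 2 per the authors' deposited tables.

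Of the lists close to BMP2, IGFBP3 and THBS1, BMP and SMAD signalling genes had 1 higher and 2 lower of 18 in clone 1 and 4 higher and 6 lower of 18 in clone 2. The ligand gene BMP7 was at -0.86 (SE 0.17) in clone 1 and 1.02 (SE 0.133) in clone 2, with SMAD1 at 0.30 (SE 0.0785) and SMAD5 at -0.14 (SE 0.0376) in clone 1 and ACVR1 at -0.49 (SE 0.0719) and ID4 at -0.78 (SE 0.142) in clone 2 per the authors' deposited tables. Insulin-like growth factor genes had 1 higher and 1 lower of 9 in clone 1 and 5 higher and 3 lower of 8 in clone 2, with IGFBP4 at -1.18 (SE 0.073), INSR at 0.65 (SE 0.067) and IGF1R at -0.47 (SE 0.0907) in clone 2 per the authors' deposited table. TGF-beta targets had 2 higher and 1 lower of 13 in clone 1 and 3 higher and 1 lower of 12 in clone 2, with FN1 at -0.68 (SE 0.0791), PMEPA1 at 0.30 (SE 0.0709) and TGFB1 at 0.39 (SE 0.141) in clone 1 and FN1 at 0.47 (SE 0.0768), SKIL at -0.46 (SE 0.0762) and TGFB1 at 0.65 (SE 0.122) in clone 2 per the authors' deposited tables.

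The list of collagen and fibronectin receptor and thrombospondin genes had 2 higher and 1 lower of 13 in clone 1 and 3 higher and 0 lower of 11 in clone 2. In clone 1 CD47 was at 0.30 (SE 0.0485), ITGA5 at -1.38 (SE 0.282) and ITGB3 at 0.82 (SE 0.282) per the authors' deposited table. In clone 2 LRP1 was at 1.07 (SE 0.1), ITGA5 at 1.26 (SE 0.216) and ITGA11 at 0.68 (SE 0.234) per the authors' deposited table. NF-kB feedback genes had 1 higher and 1 lower of 13 in clone 1 and 1 higher and 2 lower of 13 in clone 2, with TRAF1 at -2.69 (SE 0.234), TNIP1 at 0.25 (SE 0.0637) and NFKB1 at -0.26 (SE 0.0713) in clone 2 per the authors' deposited table. FOXO and atrophy genes had 0 higher and 1 lower of 16 in clone 1 and 3 higher and 1 lower of 16 in clone 2, with SESN1 at 0.48 (SE 0.0843), CUL1 at -0.19 (SE 0.0461) and IRS2 at 0.31 (SE 0.106) in clone 2 per the authors' deposited table. YAP and TEAD targets had 0 higher and 1 lower of 13 in clone 1 and 4 higher and 2 lower of 13 in clone 2, with AMOTL2 at 1.05 (SE 0.0555), LATS2 at 1.55 (SE 0.195) and AJUBA at 0.57 (SE 0.125) in clone 2 per the authors' deposited table. In clones 1 and 2 the inward rectifier channels had 1 of 5 and 1 of 6 higher, the arachidonate genes 0 of 8 and 2 of 7 called, the IL-1 and IL-17 response genes 1 of 3 and 2 of 3 called, and no L6 family gene was measured.

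The differences between comparisons were tested per gene, over all genes measured in both tables and with Benjamini-Hochberg adjustment. Their statistics were not divided by the central spread of the tables. Of the 6 genes, the clones of CHP-134 differed for 1, PTX3, against 20.5% of all genes: the log2 fold change in clone 1 exceeded that in clone 2 by 1.08 (SE 0.339, adjusted p = 0.0106). The shared controls of the clones by themselves make this test conservative. The authors' SEs may measure technical spread only, and the central spread of the statistics was 1.84 in clone 1 and 3.08 in clone 2. Whether the test as a whole is conservative is therefore not known. The difference did not pass with the neighbour median removed (0.55, adjusted p = 0.299). For the other 5 genes the difference lay between -0.14 and 0.12, with 95% intervals reaching at most 0.99 in size, so that sizeable differences remain possible. The RPE1 knockout differed from CHP-134 clone 1 for 5 of the 6 genes, against 34.1% of all genes, and from clone 2 for 5 of the 6, against 46.5%. FBXO32 had the largest such difference, -2.34 (SE 0.198, adjusted p = 2.39e-30) against clone 1 and -2.35 (SE 0.204, adjusted p = 5.41e-29) against clone 2. THBS1 was the gene that did not pass, with differences of -0.28 (95% interval -0.70 to 0.13, adjusted p = 0.315) and -0.36 (-0.77 to 0.045, adjusted p = 0.145).

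The other 67 genes called lower in both TetOn clones lay on both sides of 0 in the knockout as well. Of the 66 measured there, 36 were called higher and 23 lower (54.5% and 34.8%), with a median of 0.10, against 5 and 5 of the 10 genes (50% each). Of all measured genes in the knockout, 26.6% were called higher and 26.9% lower. In CHP-134 clone 1, 10 were higher and 7 lower of 59 (16.9% and 11.9%), against 0 and 0 of 6. Of all measured genes in clone 1, 9.60% were called higher and 9.07% lower. In clone 2, 12 were higher and 24 lower of 60 (20% and 40%), against 0 and 1 of 6. Of all measured genes in clone 2, 22.0% were called higher and 24.2% lower. Of the 5 genes next in the ranking, HHIP (0.56), SEMA3D (0.68) and ALDH1A3 (0.30) were higher and GDF6 (-1.43) and LIF (-0.58) lower in the knockout per the authors' deposited table. In clone 2 the growth factor genes GDF6 (1.66) and LIF (1.74) were called higher per the authors' deposited table. In clone 1 LIF (1.41, q = 1.92e-05) was called higher and GDF6 (0.16, q = 0.699) was not called per the authors' deposited table. The difference between the lines was not tested for these genes. Among 10278 genes measured in all 5 tables, the 5 whose log2 fold changes lay nearest to the medians of the 10 genes, by Euclidean distance over the 5 tables, were MYLK4 (distance 0.233), LOC728558 (0.363), KCNK3 (0.383), LGALSL (0.39) and TMEM81 (0.398). None of these was called in the knockout. With doxycycline KCNK3 alone was called, as lower in clone 5 (q = 0.0234) per the authors' deposited table. The knockout median, 0.17, lies between the higher and the lower genes, and the CHP-134 medians are of 6 genes.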

How the data were processed

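RNA was sequenced from 39 libraries, which the labels put in 9 groups. The authors used STAR and DESeq2, per the submitters' processing notes. Not given in the sources used here: versions, genome build, annotation, strand setting and counting rule, so reads of overlapping genes may not be told apart. The authors' deposited tables, per the file headers, give a mean count of unstated scaling, a log2 fold change with its SE, and a q value (an adjusted p-value), for 23710 symbols. Genes under a mean count of 10 are marked Low, and some are marked Outlier. The highest SE in a table was 0.204 to 0.422 even for genes of very low count, so fold changes of such genes may be shrunken. TRIM37's sign gave each table's direction.

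No depth per library is known, and values per library were not analysed here, so the authors' q under 0.05 was used as deposited, with no count model fitted. Recomputing it as a two-sided normal p-value with Benjamini-Hochberg adjustment called 6959 genes against 6963 as deposited in the knockout. Differences between tables divided the difference of the log2 fold changes by the square root of their added variances. This test was tried on simulated data with normal noise of the size of the authors' SEs, drawn separately for each table. The simulation held neither the shared controls of the CHP-134 clones nor the wide central spread of the real statistics. The differences between RPE1 and CHP-134 were added after the data were seen. Gene order came from RefSeq (GRCh38.p14, 22701 symbols matched). The 10 genes, the 13 related lists and the tests were chosen with earlier results of these data known. Named are the 10 genes, TRIM37, the 5 next in the ranking, the 5 nearest profiles, and called list genes with the 3 smallest q where at least 3 were called, of which 1 is not reported here. Marker lists served the check of the lines. Python 3.11.15, numpy 2.4.6, pandas 2.3.3, scipy 1.17.1 and matplotlib 3.10.9 were used.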

Additional observations from a re-analysis of the deposited data

Results flagged for a closer look

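The differences listed here passed the test of the difference between comparisons itself (adjusted p under 0.05, Benjamini-Hochberg over all genes measured in both tables). This test uses the authors' SEs as they stand. The central spread of the statistics was 3.64 in the knockout and 1.84 and 3.08 in CHP-134 clones 1 and 2, and the differences were not rescaled for it. The knockout calls of BMP2 and NFKBIZ were not kept on such rescaling. PTX3 had a log2 fold change in CHP-134 clone 1 that exceeded that in clone 2 by 1.08 (adjusted p = 0.0106).

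The RPE1 knockout minus CHP-134 clone 1 gave -2.34 for FBXO32, 1.74 for ITGA2, 0.93 for PTX3, -0.74 for BMP2 and 0.55 for NFKBIZ on the log2 scale. Against CHP-134 clone 2 the same differences were -2.35 for FBXO32, 1.60 for ITGA2, 2.01 for PTX3, -0.63 for BMP2 and 0.59 for NFKBIZ. The adjusted p ran from 2.39e-30 for FBXO32 to 0.0381 for NFKBIZ against clone 1 and from 5.41e-29 for FBXO32 to 0.0309 for BMP2 against clone 2. Both sets share the knockout values and the CHP-134 wild type libraries. The lines also differ in the levels of these genes and in the number of libraries, and the part of these in the differences was not tested.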

How the results depend on the processing

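No paired analysis was possible because the tables hold no values per library; leaving out each replicate was not run for the same reason. Of 189 values of single genes and differences under the alternatives, 173 kept their direction and their side of the threshold, 13 lost the call, 2 gained one and 1 changed sign. The last is NFKBIZ in CHP-134 clone 2, which was not called at -0.15 and was at 0.027 with the neighbour median removed (adjusted p = 0.935). Genes that were not called could not gain a call at a stricter threshold, so part of the 173 was fixed by the setting. Of the 10 genes in the knockout, 3 rather than 5 were higher and 3 rather than 5 lower at 1.5-fold or more, and 3 higher and 2 lower with the null rescaled to the table's central spread. The shares of all measured genes at these settings are not given here. In CHP-134 clone 2, FBXO32 was called higher (1 rather than 0) at a q under 0.1 and with the neighbour median removed (adjusted p = 0.0121); PTX3 was lost (0 rather than 1) with the null rescaled (adjusted p = 0.906), at a mean count of at least 100, which it does not reach, and with the neighbour median removed. The clone difference was called for 0 rather than 1 gene at an adjusted p under 0.01 and with the neighbour median removed. The causes were not tested.

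The share of all measured genes called is given at the main threshold only. Counts at other settings, for the related lists and for the other 67 lowered genes, are therefore a description only. Over all related lists, the genes called higher and lower were 54 and 88 in the knockout, 18 and 13 in CHP-134 clone 1, 35 and 26 in clone 2, 9 and 9 in TetOn clone 4, and 2 and 24 in clone 5. At 1.5-fold or more they were 24 and 34 in the knockout, 6 and 3 in clone 1, 20 and 6 in clone 2, 0 and 0 in TetOn clone 4, and 0 and 0 in clone 5. With the null rescaled they were 18 and 38, 3 and 2, 3 and 3, and 4 and 5 in the first 4 of these comparisons, and 0 were higher and 22 lower in TetOn clone 5. At a q under 0.01 they were 4 and 4 in TetOn clone 4, and 0 were higher and 21 lower in clone 5. Of the other 67 lowered genes, at 1.5-fold or more 12 were higher and 5 lower in the knockout (36 and 23 at the main threshold), 3 and 3 in CHP-134 clone 1 (10 and 7), and 8 and 11 in clone 2 (12 and 24). With the null rescaled 26 were higher and 13 lower in the knockout, 1 was higher and 1 lower in clone 1, and 0 were higher and 3 lower in clone 2.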
